A study of Mus musculus with 6 samples.

Results

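Cycling basal keratinocytes are the dividing cells at the bottom of the epidermis. Here they were single-cell transcriptomes of embryonic mouse skin that carried at least 10 UMIs (unique molecular identifiers, each a counted transcript) of Krt5, Krt14, Krt15 and Epcam together, and at least 5 UMIs of Top2a, Mki67, Ube2c and Cdk1 together. They also carried at most 5 UMIs of the collagens Col1a1, Col1a2 and Col3a1, at most 3 of the suprabasal genes Krt1, Krt10 and Krtdap, and at most 2 of the placode genes Dkk4, Shh, Edar, Bmp2, Lhx2 and Fgf20. Among 40653 cells that showed 500 genes or more and no more than 10% of UMIs from mitochondria, 5308 were basal keratinocytes by these sums and 2583 of them were cycling. Another 1152 basal cells held no UMI of the 4 cycle genes and are called non-cycling below, and 1573 held 1 to 4. The name stands for that gate only, since the 4 genes act late in the cycle. Cells in earlier phases can be in the class. The cells were thus chosen by measured UMI sums, and levels of the genes in those sums are given only as a description.

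The study profiled dissociated dorsolateral skin at embryonic day (E) 13.5 and E14.5, across the time at which hair follicle placodes and dermal condensates form, with droplet 3′ single-cell RNA sequencing. Controls on the CD1 background, labelled WT, gave 2 libraries at each stage. A loss-of-function (LOF) group, on the same background and of genotype PDGFRalphaCreER(Lo);beta-catfl/fl;mTmG, gave 1 library at each stage, and the embryos had a dose of tamoxifen at E11.5. No tamoxifen is recorded for the controls, so genotype and drug cannot be told apart. In that cross a tamoxifen-inducible Cre driven from Pdgfra, a gene of dermal fibroblasts, deletes floxed beta-catenin (Ctnnb1), and the mTmG reporter switches from tdTomato to eGFP where Cre has acted, so keratinocytes are not the targeted cells. Each sample pooled skin of several embryos, and live cells were sorted by exclusion of the dye DAPI. Nothing in the labels says that the control replicates came from separate litters, so p-values measure the spread between these libraries.

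The basal layer is a proliferating compartment of the epidermis. Its cells rest on the basement membrane through integrins and laminins, and their daughters either stay basal or move up and stratify. A dividing cell copies its DNA with help of the replication genes that E2F factors switch on at the G1/S boundary, and later expresses a second wave of genes for chromosome condensation, the spindle and cytokinesis. The MuvB-containing DREAM and MMB complexes act on promoters of that later wave through an element called CHR, often together with CCAAT boxes bound by NF-Y.

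The libraries differed in ways that the groups do not explain. Members numbered 405 and 353 in the E13.5 controls, 475 and 270 in the E14.5 controls, 270 in the E13.5 LOF library and 810 in the E14.5 LOF library, with medians of 11946 to 19134 UMIs and summed depths of 3188090 to 9764047 UMIs. Pairs of libraries across groups resembled each other. Gm42418, a predicted gene, stood at 3009 and 2503 counts per 1000000 member UMIs (CPM) in E14.5 control 1 and E14.5 LOF against 119.5 to 192 CPM in the other 4 libraries. In contrast, Gstp1, a glutathione transferase, was at 252 and 116 CPM in the second control of each stage against 30.3 to 53.3 CPM in the others. The reporter transcripts went against the WT labels: tdTomato was at 1008, 739, 39.6, 315, 958 and 61.8 CPM in members of the libraries in the order E13.5 control 1 and 2, E14.5 control 1 and 2, E13.5 LOF and E14.5 LOF. eGFP was at 3.57, 132, 5.90, 94.3, 318 and 298 CPM in cycling dermal cells in that order, high in the second control of each stage as well as in both LOF libraries, and at 0.627 to 3.05 CPM in members. Where leaving out a library changed a count or the sign of a difference in shares, that value is given beside the result. Single calls were followed this way for the 10 stage genes that met the rule for named genes, and for Igfbp5 and Ccnb1. The other stage calls were followed only as a count, so no such value is given for them. Pairs of libraries shared 45 to 103 cell barcodes, and a member's barcode was shared once in each of 2 of the 15 pairs.

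The defining markers, which the rule used, were present in each library. Krt14 lay at 1184 to 1465 CPM, and Krt5, its keratin partner, at 446 and 483 CPM in E13.5 control libraries against 952 and 867 CPM a day later, with 539 and 956 CPM in the LOF libraries of those stages. Top2a, the topoisomerase that untangles replicated DNA, was at 326, 284, 735, 336, 276 and 797 CPM in the same order of libraries, and Mki67, the coat protein of mitotic chromosomes, at 125, 91.2, 531, 125, 115 and 602 CPM. Both genes were highest in E14.5 control 1 and E14.5 LOF, the libraries that resembled each other. The median member held 12 to 21 UMIs of the 4 cycle genes by library. Cells with 4 and with 5 of these UMIs, just outside and just inside the threshold, held 3758 and 3743 CPM of the G2/M list in control 1 of E13.5, and 2957 and 3336 CPM in control 1 of E14.5. Markers of other cells were present as well: 10 dermal fibroblast genes summed to 713 to 1006 CPM, led by Sparc, and 8 erythroid genes to 36.7 to 1761 CPM, highest in E13.5 LOF. By library, 94.8% to 98.1% of members held 3 or more UMIs of the dermal genes. For the erythroid genes this share ran from 1.235% in E14.5 LOF to 94.8% in E13.5 LOF.

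The promoters of cell cycle genes show the sequence elements of both waves. Promoters from RefSeq (GRCm38.p6), 250 bases before to 50 after each start, were found for 37 of 44 genes of a G2/M and mitosis list and 24 of 32 genes of a G1/S and replication list, neither of which holds a gene of the membership rule. Genes with several annotated starts have several promoters, which gave 39 promoters for the G2/M list and 27 for the G1/S list. Both strands were searched for the CHR element TTTGAA, for the box known as CCAAT and for E2F sites (TTTCCCGC, TTTGGCGC, TTTGCCGC or TTTCGCGC). The promoters below were chosen because they hold these elements close to the start of a gene followed in the results. Capitals mark the motifs, which appear as their reverse complement where they lie on the opposite strand, and each sequence runs 5′ to 3′ on the gene's strand. Cdc20 (chr4:118437294-118437593, minus strand) activates the anaphase-promoting complex, Cenpf (chr1:189688037-189688336, minus strand) is a kinetochore protein, and Ube2c (chr2:164769679-164769978, plus strand), a gene of the rule, is the ubiquitin-conjugating partner of that complex. Mcm6 (chr1:128359656-128359955, minus strand) is a subunit of the replicative helicase.
Cdc20: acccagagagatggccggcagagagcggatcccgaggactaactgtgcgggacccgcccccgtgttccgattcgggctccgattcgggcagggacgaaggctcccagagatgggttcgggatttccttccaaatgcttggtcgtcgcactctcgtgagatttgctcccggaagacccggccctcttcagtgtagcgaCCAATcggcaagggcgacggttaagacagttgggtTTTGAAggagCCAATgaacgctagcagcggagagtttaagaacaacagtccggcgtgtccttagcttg
Cenpf: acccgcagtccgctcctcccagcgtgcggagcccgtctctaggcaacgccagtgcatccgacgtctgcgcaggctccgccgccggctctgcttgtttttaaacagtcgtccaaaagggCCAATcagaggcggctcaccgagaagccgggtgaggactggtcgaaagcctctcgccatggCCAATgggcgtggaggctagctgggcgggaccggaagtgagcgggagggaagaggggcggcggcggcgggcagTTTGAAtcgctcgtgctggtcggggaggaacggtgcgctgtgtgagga
Ube2c: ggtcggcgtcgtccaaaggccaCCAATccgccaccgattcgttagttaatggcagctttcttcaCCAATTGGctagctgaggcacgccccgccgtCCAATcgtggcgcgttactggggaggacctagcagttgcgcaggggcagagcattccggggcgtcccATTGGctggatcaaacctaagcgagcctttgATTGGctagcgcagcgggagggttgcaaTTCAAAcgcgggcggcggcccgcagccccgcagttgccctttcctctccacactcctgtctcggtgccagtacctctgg
Mcm6: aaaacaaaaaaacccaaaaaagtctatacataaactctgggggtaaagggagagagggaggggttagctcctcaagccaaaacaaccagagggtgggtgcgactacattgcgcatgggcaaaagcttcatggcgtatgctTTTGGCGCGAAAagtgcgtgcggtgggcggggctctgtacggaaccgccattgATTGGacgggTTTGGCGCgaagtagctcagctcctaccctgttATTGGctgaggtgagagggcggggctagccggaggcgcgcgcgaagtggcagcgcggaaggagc

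The Cdc20 promoter has a CHR element that starts 18 bases before the start of the gene and a CCAAT box 53 bases before it, and in Cenpf the CHR element begins 2 bases after the start. Ube2c has its CHR on the reverse strand 29 bases before the start, among 6 CCAAT boxes. Mcm6 has no CHR in this window and has overlapping E2F matches at 110 and 106 bases before the start and another at 47. Across the lists, CHR stood in 27 of 39 G2/M promoters (69.2%) and in 4 of 27 G1/S promoters (14.8%), against 17.9% of 32851 promoters of the genome. CHR and CCAAT stood together in 61.5% of G2/M promoters, in 11.1% of G1/S promoters and in 6.95% of all. E2F matches had the opposite distribution, at 1 of 39 G2/M promoters and 11 of 27 G1/S promoters (40.7%), against 2.27% of all. The promoters of the 4 cycle genes of the rule each held CHR and CCAAT. A match is a run of letters, and its use in these cells was not measured.

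**Figure D1:**
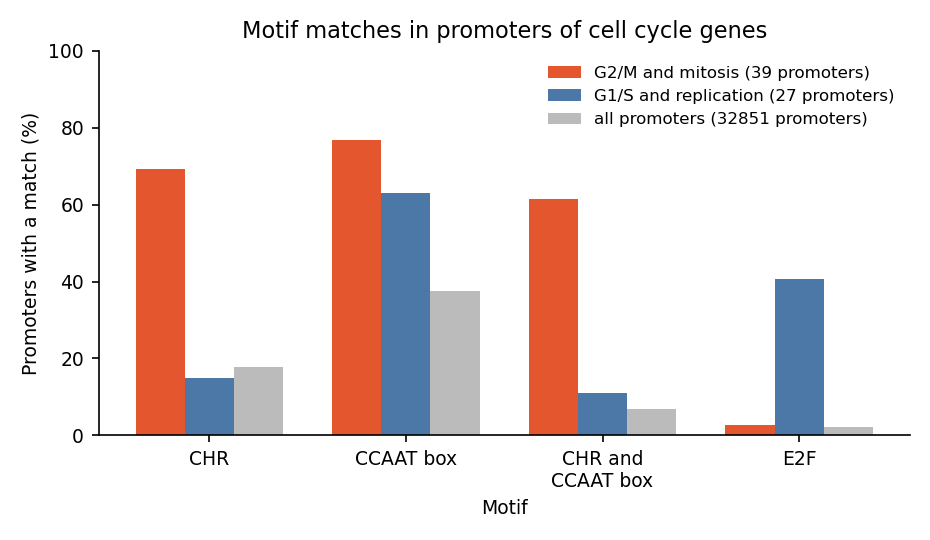
Share of promoters (percent, y axis) holding a CHR element, a CCAAT box, both, or an E2F match (x axis), as bars for the G2/M list (39 promoters), the G1/S list (27 promoters) and 32851 promoters of the genome. CHR is in 69.2% of G2/M promoters against 17.9% of all, and E2F matches are in 40.7% of G1/S promoters against 2.27% of all.

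The first question was how many basal keratinocytes met the cycling threshold. The cycling share was 56.8% and 40.3% in controls of E13.5, 57.0% and 35.7% in controls of E14.5, and 45.7% then 52.7% in the LOF embryos of these stages. Means were 48.6% ± 11.6 (SD, n = 2) at E13.5 and 46.3% ± 15.1 (SD, n = 2) at E14.5, so the difference of -2.26 points was smaller than the spread between libraries (exact two-sided permutation p = 1.0, where the smallest this design allows is 0.333). Its sign depended on single libraries: without E13.5 control 1 the difference was 5.97 points, without E13.5 control 2 -10.5, without E14.5 control 1 -12.9 and without E14.5 control 2 8.38. The first control of each stage was high and the second low, and the second controls were also shallower. With each cell thinned to 5000 UMIs and cycling called at 2 or more cycle-gene UMIs, the shares were 56.2%, 45.6%, 62.0% and 44.3% in the controls, and the means 50.9% ± 7.49 and 53.2% ± 12.5 (SD, n = 2 each), a difference of 2.28 points. In dermal cells, taken by their collagen UMIs, the unthinned cycling share was 24.8% ± 1.21 at E13.5 and 31.2% ± 10.1 at E14.5 (SD, n = 2 each). Basal keratinocytes had the higher share in each of the 6 libraries. Dissociation, sorting and the cells' different depths can also set such shares.

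**Figure D2:**
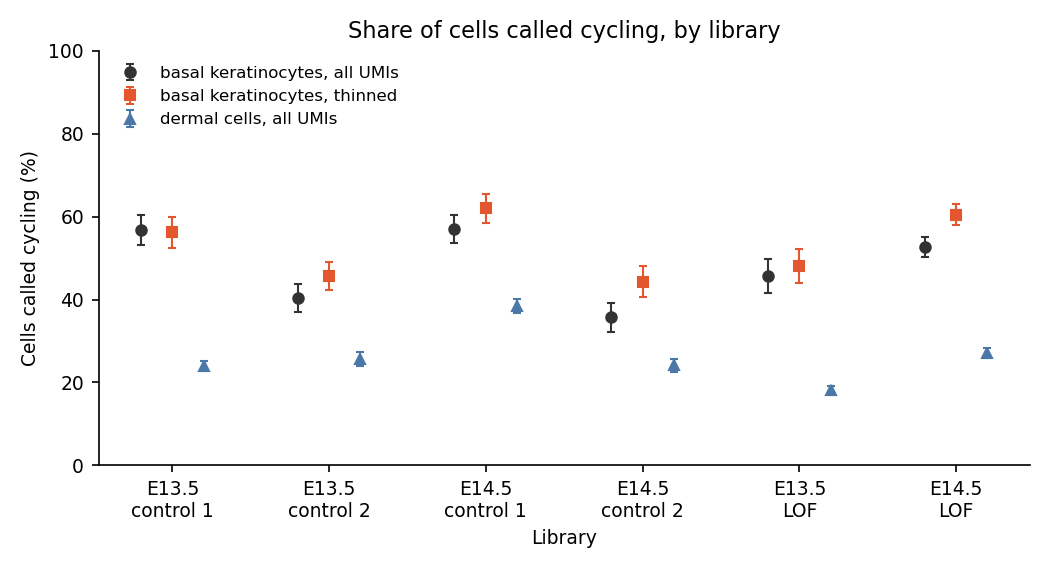
Percent of cells that were cycling (y axis) in each of the 6 libraries (x axis), with exact 95% binomial intervals, for basal keratinocytes on all UMIs (black circles), basal keratinocytes thinned to 5000 UMIs (red squares) and dermal cells (blue triangles). The basal shares run from 35.7% to 57.0% on all UMIs, above the dermal share of the same library, and the second control lies below the first at both stages.

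Position within the cycle was read from the lists that the rule did not use. Since Top2a, Mki67, Ube2c and Cdk1 act late in the cycle, members lean to late phases by construction. After thinning to 5000 UMIs, 24.4% and 24.3% of members in the E13.5 controls held more G1/S than G2/M UMIs, 28.5% and 22.9% in the E14.5 controls, and 27.1% then 25.8% in the LOF embryos. Means of 24.3% ± 0.0653 and 25.7% ± 3.99 (SD, n = 2 each) differed by 1.36 points (exact two-sided permutation p = 1.0). The difference was -1.46 points without E14.5 control 1, 4.18 without E14.5 control 2 and -0.799 without thinning, so it had no stable sign. In cycling dermal cells the corresponding means were 21.2% and 19.6%, and in non-cycling basal cells 81.4% and 88.2%. The last pair of values is fixed in direction by the rule, since non-cycling cells were taken for having no UMI of 4 late cycle genes. Their G1/S list summed to 2717 and 3378 CPM on average at the 2 stages. The G2/M list summed to 7760 ± 229 CPM in E13.5 members and to 7626 ± 229.8 CPM at E14.5 (SD, n = 2 each, exact two-sided permutation p = 0.667), and to 7503 and 8396 CPM in the LOF libraries. The G1/S list summed to 3210.2 ± 95.4 and 3186 ± 394 CPM. Neither sum separated the stages. Calls of this kind also read free RNA in the droplets, whose part was not tested.

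Cycling members were next set beside the non-cycling basal cells of the same library. This is the contrast that the rule itself made, so it is a description with no test. Values are log2 ratios of CPM with 10 CPM added, averaged over the 6 libraries. The mitotic programme stood higher throughout: 44 of 44 genes of the G2/M list were higher in members in each of the 6 libraries, with a median of 2.19, and 30 were over 4-fold. Over 9489 genes with at least 5 CPM on average in either class, 16.5% were higher in 6 of 6 libraries and 10.4% lower. Nusap1 (chr2:119618298-119651244), which bundles spindle microtubules, had the highest ratio of the list, at 3.65. Its level was 165, 160.3, 172, 166, 151 and 208 CPM in members, in the order of libraries above, against 4.14, 3.81, 1.50, 9.59, 4.26 and 3.47 CPM in non-cycling cells, with no overlap. Cdc20, whose promoter is printed above, was at 182, 225, 136, 197, 198 and 163 CPM in members and 29.8, 21.9, 6.01, 29.98, 13.4 and 7.33 CPM in non-cycling cells. For Cenpf the levels were 256, 254, 453, 267, 249 and 552 CPM against 22.4, 25.7, 24.8, 19.8, 12.8 and 23.5 CPM, and members were again above non-cycling cells in each library. Within members Cenpf was highest in E14.5 control 1 and E14.5 LOF, whereas Cdc20 was lowest there. The smallest ratio of the list was that of Cks1b, a small Cdk-binding protein, at 1.14.

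Replication genes divided. Of 32 G1/S genes, 14 were higher in members in 6 of 6 libraries, 10 were lower, and the median log2 ratio was 0.16. Those higher included Clspn (1.64), a mediator of the replication checkpoint, and the nucleotide-supply enzymes Tyms (1.30), Rrm2 (1.02) and Rrm1 (1.01). Lower were the helicase loader Cdt1 (-0.57) and the helicase subunits Mcm2 (-0.62), Mcm4 (-0.52) and Mcm6 (-0.58). Gins2 (-0.94) and the uracil glycosylase Ung (-0.99) were lower as well. Mcm6 was at 89.6, 92.1, 95.5, 60.2, 91.8 and 89.6 CPM in members against 114, 144, 152, 129, 120.4 and 139 CPM in non-cycling cells. The cyclins D, which carry growth signals into G1, were also lower in members, Ccnd1 at -0.30 and Ccnd2 at -0.33. Of 17 histone genes, 14 were higher and 1 lower: Hist1h2ap, a replication-dependent H2A gene, had the highest ratio among all genes compared (3.70), and Hist1h2bc the lowest (-1.84). Near-identical histone copies can share reads, so single histone values are uncertain. H2afx, the variant marked at DNA breaks, stood at 2.20, and 10 of 19 genes of the DNA damage response were higher.

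**Figure D3:**
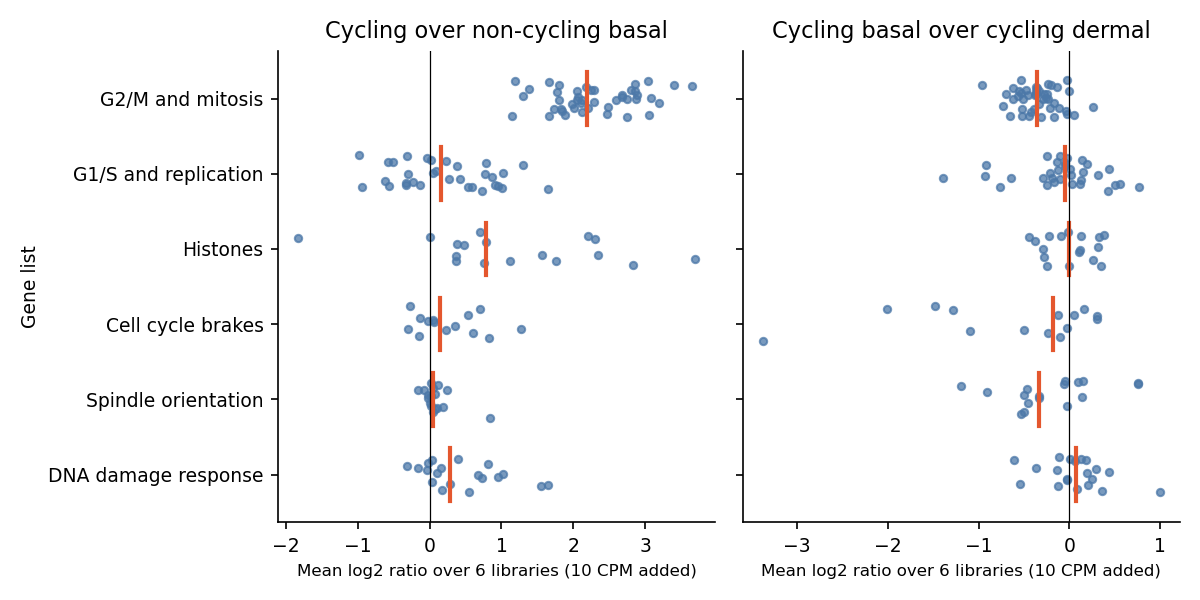
Log2 ratios averaged over the 6 libraries (x axis, 10 CPM added), each point a gene and each red bar the median of its list (y axis), for cycling over non-cycling basal cells on the left and cycling basal over cycling dermal cells on the right. The G2/M list has its median at 2.19 on the left with no gene below 0, and at -0.36 on the right.

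Genes that brake the cycle were also among those higher in members. Of 14 such genes, 6 were higher in members in 6 of 6 libraries and 1, the antiproliferative gene Btg1 (-0.30), was lower. Cdkn2d, an inhibitor of the cyclin D kinases, had the highest ratio at 1.27 and was at 33.2, 47.6, 30.2, 41.4, 34.7 and 32.5 CPM in members. Ccng2 stood at 0.82 and Rbl1, the pocket protein p107, at 0.60, while Cdkn1c (p57) stood at -0.03. Among 17 genes of spindle orientation, which set whether a basal division is planar or perpendicular, Gpsm2 (LGN) at 0.83 and Numa1 at 0.24 were higher in each library, and the median was 0.04. That is 11.8% of the list, against 16.5% of all genes. Both encode cortical adaptors that hold the spindle, and Gpsm2 lay at 54.6 to 59.6 CPM over the 6 libraries.

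Epidermal identity genes moved little with the cycle. The median ratio was 0.00 for 20 genes of basal adhesion, -0.01 for 33 epidermal transcription factors and 0.09 for 23 growth factor receptors. Trp63, the master regulator of the basal state, stood at -0.01, and the hemidesmosome gene Col17a1 at -0.05. Fgfr2 (0.22), a receptor for dermal FGFs, and Pdgfa (0.38), the epidermal ligand of the dermal PDGF receptor, were higher in each library. Cell junction genes leaned the other way, with 10 of 21 lower in members in 6 of 6 libraries, 1 higher and a median of -0.17. Among those lower were the tight-junction claudins Cldn6 (-0.78) and Cldn4 (-0.49), the cadherin Cdh1 (-0.35) and the gap-junction gene Gja1 (-0.34), while Gjb2 (0.18) was higher. Of 7 periderm genes, which mark the flat outer cells of embryonic skin, 4 were lower, led by Krt4 (-1.73) and Krt19 (-1.71). Genes outside the lists were ranked where they had a mean of at least 20 CPM in either class and the same direction in 6 libraries. Predicted, ribosomal, mitochondrial and haemoglobin genes were left out. Among these the largest ratios belonged to further mitotic genes, with Spc25 at 3.35 and Pbk at 2.98. The lowest belonged to S100a6 (-1.23), Mxd4 (-1.11), an antagonist of Myc, and the non-coding Hotairm1 (-1.05). Members were also deeper than non-cycling cells, with medians of 11946 to 19134 against 8260 to 12392 UMIs, and the part of cell size and depth was not tested.

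Dividing dermal cells of the same libraries, chosen with the same cycle genes, served as a second comparison, again without a test because the rule chose both. There were 5848 of them. Their median depth was below that of members in each library, at 10170.5 to 15831 UMIs against 11946 to 19134. Both classes were gated on raw UMIs, and the part of depth in the values below was not tested. No gene of the 44 in the G2/M list was higher in cycling basal cells in each of the 6 libraries, 34 were lower, and the median log2 ratio was -0.36, against 25.4% of 10492 genes higher and 40.3% lower. Ccna2, the cyclin of S and G2, stood at -0.97, and Mad2l1, a spindle checkpoint protein, at 0.25. The summed G2/M list was at 9346 ± 233 CPM on E13.5 and 10535 ± 494 CPM on E14.5 (SD, n = 2 each) in dermal cells, above the 7760 and 7626 CPM of the members. Cdkn1c differed most among the brakes, at 205, 185, 138, 139.9, 270.4 and 206 CPM in members against 2097, 1596, 1724, 1547, 3073 and 2479 CPM in dermal cells (-3.38). Genes of ribosome biogenesis leaned the other way, with 14 of 18 higher in members and a median of 0.41, led by nucleolin (Ncl, 0.82). Immediate-early genes that enzymatic dissociation is known to induce were lower in members (11 of 13, median -1.93). Among genes that define the epidermis, Trp63 (4.33), the desmosomal gene Perp (4.48), the laminin receptor Bcam (4.14) and Wnt6 (4.21) stood far above their dermal levels, as the choice of cells fixed.

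The comparison of E14.5 with E13.5 asked what changed in dividing basal cells within a day. Cells of both stages were chosen by the same UMI sums, so the rule did not use stage. Genes in those sums, such as Krt5, differed in level between the stages, and the part of this in the changes below was not tested. UMI counts summed over members in each control library were compared with edgeR's quasi-likelihood test. Of 10989 genes tested, 26 (0.237%) passed an adjusted p of 0.05, 13 higher and 13 lower at E14.5 (0.118% each way), and 1265 of the 10989 had an unadjusted p under 0.05. Those that rose included the hemidesmosome gene Col17a1, the stratification genes Dmkn, Serpinb5 and Asprv1, and the Hedgehog receptor Ptch1, and those that fell included the transcription factors Irx6 and Sox11, the connexin Gjb2 and Igfbp2. The 26 genes had the same direction between the 2 LOF libraries, 21 of them at least 2-fold, while 8873 of 10989 genes had the same direction there. In the controls the groups did not overlap for any of the 26, against 16.4% of genes tested with both E14.5 controls above both E13.5 controls and 30.4% below. The count rested on single libraries: without E14.5 control 2 it was 1898 genes, without E13.5 control 1 143, without E14.5 control 1 86 and without E13.5 control 2 76, and these held 26, 26, 25 and 24 of the 26.

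Of the genes that hold basal cells to the basement membrane, 1 rose. Col17a1 (chr19:47646344-47692094), the transmembrane collagen of hemidesmosomes, was at 19.03 and 12.97 CPM in control embryos at E13.5, 99.9 and 67.4 CPM in control embryos at E14.5, and 38.3 then 101 CPM in LOF embryos at these stages. Both E14.5 controls lay above both E13.5 controls (log2 difference 2.43, SE 0.30, edgeR adjusted p = 0.0442), and so did the E14.5 LOF library above the E13.5 LOF library. The call did not pass with members taken at 3 or more cycle-gene UMIs, at the same log2 difference of 2.43, or with all 6 libraries and the resembling pairs as a covariate (2.54). Of the 20 genes of basal adhesion tested, 19 had a positive difference, with a median of 0.64, and Col17a1 alone passed the test. Over all genes 5632 of 10989 (51.3%) were positive, with a median of 0.02. Plec, which links hemidesmosomes to keratin, was at 16.5 and 13.4 CPM in E13.5 control libraries against 63.5 and 30.4 CPM a day later, with 24.8 and 70.97 CPM in the LOF libraries of those stages (log2 difference 1.70, SE 0.36, edgeR adjusted p = 0.163). Dst, the epithelial isoforms of which do the same, was at 88.3 and 85.05 CPM in E13.5 control libraries against 328 and 111 CPM a day later, with 94.9 and 368 CPM in the LOF libraries of those stages (log2 difference 1.37, SE 0.43, edgeR adjusted p = 0.335). In both genes E14.5 control 1 stood well above E14.5 control 2, close to the E14.5 LOF library. Laminins are the ligands of basal integrins, and their chain genes Lama3 and Lamb3 gave differences of 1.43 and 1.69, neither of which passed the test.

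Genes of commitment and stratification rose in 3 of 14 tested, Dmkn, Serpinb5 and Asprv1, while 12 of the 14 had a positive difference, with a median of 0.67. Dmkn (chr7:30763756-30781063), which encodes the secreted protein dermokine of upper epidermal layers, was at 1.51 and 1.49 CPM in control embryos at E13.5, 226 and 311 CPM in control embryos at E14.5, and 0.762 then 193 CPM in LOF embryos at these stages (log2 difference 7.53, SE 0.37, edgeR adjusted p = 0.00117). It was near 0 in members of each E13.5 library and abundant in members of each E14.5 library. In suprabasal cells, which the rule keeps out, it was at 379, 154, 2394, 1946, 178 and 1961 CPM in the order of libraries given above. After thinning to 5000 UMIs, 53.2% and 65.9% of members in the E14.5 controls had a Dmkn UMI, against 7.44% and 14.4% of cycling dermal cells at the same depth. Serpinb5 (chr1:106861173-106883348), the serpin maspin, was at 4.08 and 1.91 CPM in E13.5 control libraries against 75.1 and 60.5 CPM a day later, with 3.43 and 45.3 CPM in the LOF libraries of those stages (log2 difference 4.50, SE 0.39, edgeR adjusted p = 0.0178). Asprv1, a protease that processes profilaggrin, was at 3.93 and 2.76 CPM in E13.5 control libraries against 27.9 and 35.8 CPM a day later, with 4.00 and 12.3 CPM in the LOF libraries of those stages (log2 difference 3.29, SE 0.38, edgeR adjusted p = 0.0342). In each library members held less than 1 part in 5 of the suprabasal level of Asprv1 and of Dmkn, and the part of free RNA in their rise was not tested. Sfn (14-3-3 sigma), which was already expressed at E13.5, was at 295 and 232 CPM in E13.5 control libraries against 328 and 360.4 CPM a day later, with 262 and 283 CPM in the LOF libraries of those stages (log2 difference 0.45, SE 0.23, edgeR adjusted p = 0.473). The Notch ligand Jag2 gave 1.77 and the receptor Notch1 0.79, and neither passed the test.

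Among receptors, Ptch1 (chr13:63508328-63573598), which is both the receptor and a direct target of Hedgehog signalling, was the 1 gene that rose among 23 receptor genes tested, of which 17 were positive, with a median of 0.48. Its level was 2.87 and 1.49 CPM in control embryos at E13.5, 46.2 and 41.1 CPM in control embryos at E14.5, and 4.38 then 26.7 CPM in LOF embryos at these stages (log2 difference 4.33, SE 0.39, edgeR adjusted p = 0.0178). All E14.5 libraries lay above all E13.5 libraries. In cycling dermal cells Ptch1 was at 2.67, 1.89, 43.1, 24.6, 2.66 and 26.4 CPM, and in non-cycling basal cells at 4.97, 0, 48.1, 28.2, 3.65 and 20.8 CPM, in the order of libraries given above. The change did not differ between cycling and non-cycling basal cells beyond error (log2 difference 0.20, SE 0.76, edgeR adjusted p = 0.985). None of 19 epidermal ligand genes passed, with 8 positive and a median of -0.14. Pdgfa was at 565 and 611 CPM in E13.5 control libraries against 627 and 716 CPM a day later, with 622 and 564 CPM in the LOF libraries of those stages, and Wnt7b, a ligand of the embryonic epidermis, at 162 and 151 CPM in E13.5 control libraries against 73.98 and 105 CPM a day later, with 198 and 67.5 CPM in the LOF libraries of those stages (log2 difference -0.73, SE 0.27, edgeR adjusted p = 0.383). Wnt16, a ligand outside the list that is named here after its values were seen, was at 7.40 and 5.74 CPM in E13.5 control libraries against 65.5 and 46.1 CPM a day later, with 7.62 and 74.5 CPM in the LOF libraries of those stages (log2 difference 3.13, SE 0.31, edgeR adjusted p = 0.0237).

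The galectin Lgals7, a marker of stratified epithelium, was at 40.2 and 43.6 CPM in E13.5 control libraries against 269.7 and 221 CPM a day later, with 79.4 and 229.9 CPM in the LOF libraries of those stages (log2 difference 2.61, SE 0.21, edgeR adjusted p = 0.0178). Lmna, which encodes the A-type lamins of the nuclear envelope, was at 16.5 and 12.8 CPM in E13.5 control libraries against 64.2 and 74.7 CPM a day later, with 23.2 and 61.96 CPM in the LOF libraries of those stages (log2 difference 2.31, SE 0.29, edgeR adjusted p = 0.0442). Both were higher in each E14.5 library than in each E13.5 library. Lgals7 did not pass with all 6 libraries and the resembling pairs as a covariate (2.50), nor Lmna with members taken at 3 or more cycle-gene UMIs (2.23). The AP-1 gene Jun was at 16.8 and 15.7 CPM in E13.5 control libraries against 68.5 and 74.97 CPM a day later, with 20.8 and 62.4 CPM in the LOF libraries of those stages (log2 difference 2.20, SE 0.26, edgeR adjusted p = 0.0364). Jun belongs to a list of genes that dissociation is known to induce, in which 14 of 15 had a positive difference between the control stages with a median of 1.36 and 1 passed, against 9 of 15 positive between the LOF libraries. Junb, for instance, was at 14.5 and 11.1 CPM in E13.5 control libraries against 40.6 and 122 CPM a day later, with 33.9 and 42.9 CPM in the LOF libraries of those stages and did not pass (log2 difference 2.75, SE 0.58, edgeR adjusted p = 0.169). Markers of mast cells differed with stage as well, their 7 genes summing to 2.87 and 1.70 CPM in controls of E13.5, 131 and 20.4 CPM in controls of E14.5 and 4.57 and 85.0 CPM in the LOF libraries, with Mcpt4 and Fcer1a at 0. Few members held 3 or more of these UMIs: 0.632% in E14.5 control 1, 0.37% in E14.5 control 2 and 0.617% in E14.5 LOF. The part of dissociation and of other cells' RNA in these rises was not tested.

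**Figure D4:**
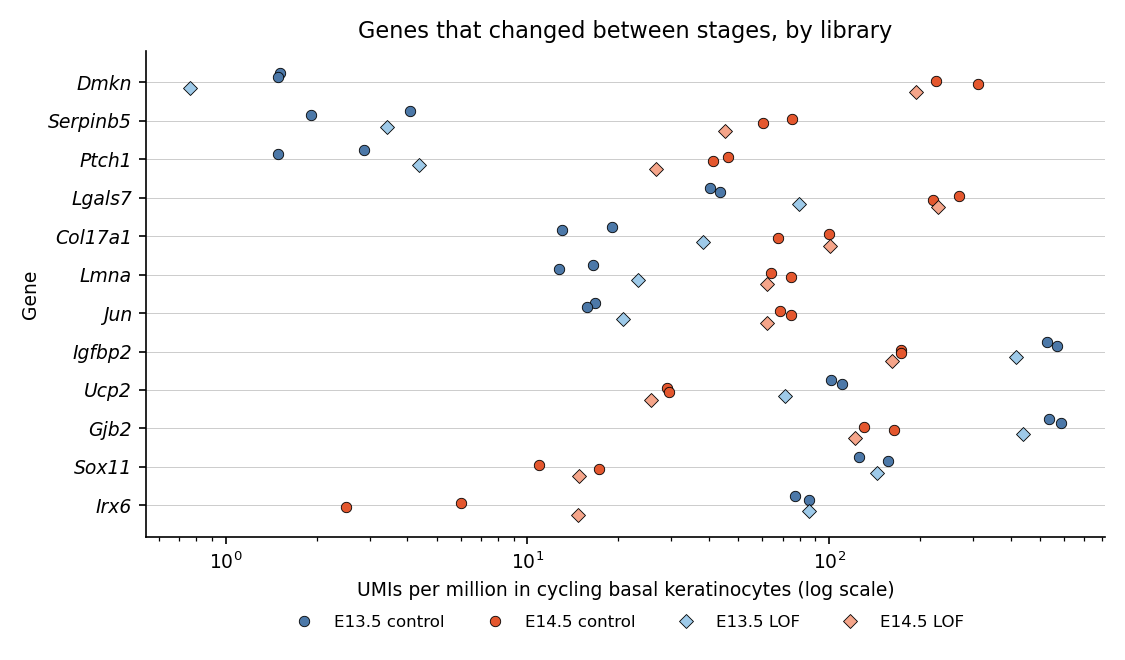
Level in cycling basal keratinocytes (CPM, log axis) of 12 genes that passed the test between stages, by library, with circles for controls and diamonds for LOF libraries. Each gene's E14.5 libraries lie on 1 side of its E13.5 libraries, from Dmkn, near 1.5 CPM at E13.5 and at 226 and 311 CPM in the E14.5 controls, to Irx6, at 76.9 and 85.7 CPM and then 6.00 and 2.51 CPM.

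Transcription factors were among the falls. Of 35 epidermal transcription factors tested, Irx6 and Sox11 fell, none rose past the test, and 17 were positive with a median of -0.04. Irx6 (chr8:92674288-92680956), an Iroquois homeobox gene, was at 76.9 and 85.7 CPM in control embryos at E13.5, 6.00 and 2.51 CPM in control embryos at E14.5, and 85.7 then 14.7 CPM in LOF embryos at these stages (log2 difference -4.12, SE 0.37, edgeR adjusted p = 0.0178). The share of thinned members with an Irx6 UMI was 28.4% and 33.1% in the E13.5 controls against 2.77% and 0.775% in the E14.5 controls. Sox11 (chr12:27334264-27342574), a SoxC factor of embryonic progenitors, was at 125 and 156 CPM in control embryos at E13.5, 10.9 and 17.3 CPM in control embryos at E14.5, and 144 then 14.8 CPM in LOF embryos at these stages (log2 difference -3.28, SE 0.34, edgeR adjusted p = 0.0282). Its thinned share went from 43.0% and 54.9% of members to 5.32% and 10.1%. Other Iroquois genes also had lower values at E14.5 without passing the test, Irx3 with a difference of -1.81, Irx5 with -0.97 and Irx4 with -0.79, while Irx1 (0.21) and Irx2 (0.09) differed by less than their SE. Trp63 was at 235 and 175 CPM in E13.5 control libraries against 259 and 209 CPM a day later, with 216 and 254 CPM in the LOF libraries of those stages (log2 difference 0.24, SE 0.22, edgeR adjusted p = 0.654), and its levels overlapped between stages. Klf4, a factor of stratification, gave 1.53 and did not pass.

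Among gap-junction genes, 1 fell. Gjb2 (connexin 26) was at 536 and 587 CPM in control embryos at E13.5, 130.2 and 164 CPM in control embryos at E14.5, and 437 then 121 CPM in LOF embryos at these stages (log2 difference -1.86, SE 0.24, edgeR adjusted p = 0.0468). Gjb2 did not pass with members taken at 3 or more cycle-gene UMIs (-1.83). Its neighbour in function Gjb6 (connexin 30) was at 519 and 472 CPM in E13.5 control libraries against 145 and 180.0 CPM a day later, with 378 and 146 CPM in the LOF libraries of those stages and did not pass (log2 difference -1.54, SE 0.24, edgeR adjusted p = 0.0717). Gja1 (connexin 43) had a difference of 0.56. Of the 21 junction genes tested, Gjb2 alone passed, 11 were positive and the median was 0.01. Cldn6, a claudin of embryonic epithelia, was at 43.5 and 31.04 CPM in E13.5 control libraries against 8.52 and 6.59 CPM a day later, with 31.2 and 6.14 CPM in the LOF libraries of those stages and did not pass (log2 difference -2.24, SE 0.33, edgeR adjusted p = 0.0658). The desmosomal gene Dsp had the opposite direction, at 87.3 and 80.4 CPM in E13.5 control libraries against 334 and 139 CPM a day later, with 84.4 and 304 CPM in the LOF libraries of those stages (log2 difference 1.53, SE 0.36, edgeR adjusted p = 0.193).

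Igfbp2, which binds insulin-like growth factors, was at 528 and 567 CPM in E13.5 control libraries against 172 and 173 CPM a day later, with 417 and 161 CPM in the LOF libraries of those stages (log2 difference -1.60, SE 0.21, edgeR adjusted p = 0.0468). Ucp2, a mitochondrial carrier, was at 102 and 110.1 CPM in E13.5 control libraries against 29.03 and 29.5 CPM a day later, with 71.3 and 25.7 CPM in the LOF libraries of those stages (log2 difference -1.79, SE 0.23, edgeR adjusted p = 0.0468). For both genes the E14.5 LOF library held a level near that of the E14.5 controls, and without E13.5 control 2 neither passed (-1.53 for Igfbp2 and -1.71 for Ucp2). Neither passed with members taken at 3 or more cycle-gene UMIs (-1.51 and -1.85), and Ucp2 did not pass without cells that held other markers (-1.74). None of 17 fetal growth genes passed the test, with 10 positive and a median of 0.03. Hmga2, a chromatin protein of fetal cells in that list, was at 572 and 660.0 CPM in E13.5 control libraries against 283 and 275 CPM a day later, with 704 and 322 CPM in the LOF libraries of those stages (log2 difference -1.08, SE 0.21, edgeR adjusted p = 0.13). Of 7 periderm genes, Aqp3 rose and Gabrp fell. Gabrp, a GABA receptor subunit, was at 6.95 and 9.14 CPM in E13.5 control libraries against 0.419 and 0.314 CPM a day later, with 8.76 and 0.41 CPM in the LOF libraries of those stages (log2 difference -4.27, SE 0.57, edgeR adjusted p = 0.0468), and the water and glycerol channel Aqp3 was at 0.906 and 0.638 CPM in E13.5 control libraries against 21.1 and 14.7 CPM a day later, with 7.05 and 29.4 CPM in the LOF libraries of those stages (log2 difference 4.52, SE 0.44, edgeR adjusted p = 0.0228). Suprabasal cells held 46.1 to 286 CPM of Aqp3. The remaining calls are named here after their values were seen. Cav1 (3.18), Calm4 (4.73) and Defb1 (3.63) rose. Bfsp2 (-3.41), Myl9 (-3.27), Slc2a3 (-2.86), Nell2 (-2.79), Cdh13 (-2.78), Adh1 (-2.59) and Tmem108 (-2.51) fell. For Myl9 and Aqp3 members held, on average, less than 1 part in 5 of the level of another class. The part of free RNA in their changes was not tested.

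For the cell cycle genes themselves the test gave no call. None of 44 G2/M genes and none of 32 G1/S genes passed, by edgeR's test, with 23 and 13 positive and medians of 0.03 and -0.14, and 4 genes of each list had an unadjusted p under 0.05. The control stages did not overlap for 19 of the G2/M genes, 8 above and 11 below at E14.5, and for 16 of the G1/S genes, 3 above and 13 below. Over all 10989 genes tested, 16.4% lay above and 30.4% below in the same sense. Chaf1b, a subunit of the chromatin assembly factor, was at 77.5 and 88.02 CPM in E13.5 control libraries against 40.1 and 31.4 CPM a day later, with 72.02 and 37.1 CPM in the LOF libraries of those stages (log2 difference -1.15, SE 0.24, edgeR adjusted p = 0.156). Brakes gave 12 of 14 positive with a median of 0.38, and spindle orientation genes 15 of 18 with a median of 0.39, none past the test. Numa1 was at 34.4 and 33.8 CPM in E13.5 control libraries against 71.3 and 35.1 CPM a day later, with 37.2 and 75.1 CPM in the LOF libraries of those stages, so the difference rested on E14.5 control 1. Among 7 placode genes, which the rule partly limits, 7 were positive with a median of 1.13 and none passed. Sostdc1, a secreted BMP and Wnt modulator between placodes, was at 216 and 219.8 CPM in E13.5 control libraries against 539 and 768 CPM a day later, with 329 and 354 CPM in the LOF libraries of those stages (log2 difference 1.66, SE 0.27, edgeR adjusted p = 0.0817). A test at this size can miss a difference: on simulated counts it recovered 94% of genes changed 4-fold and 8% of genes changed 2-fold, with 12 false calls.

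**Figure D5:**
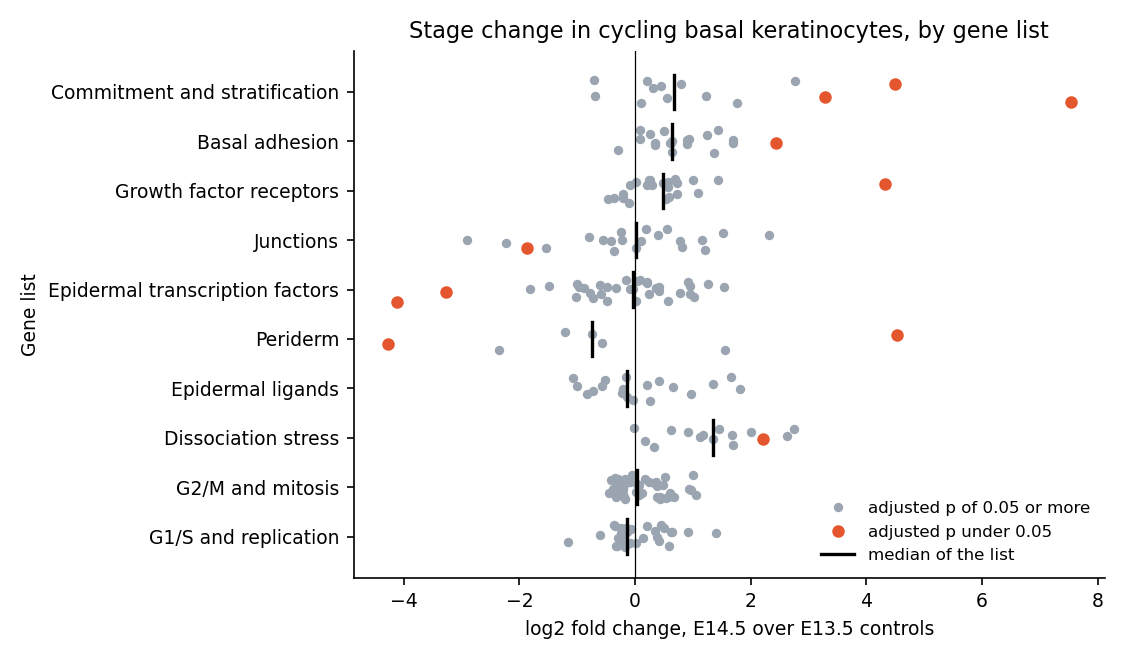
Log2 difference between E14.5 and E13.5 controls in cycling basal keratinocytes (x axis) for the genes of 10 lists (y axis), each point a gene, red where the adjusted p was under 0.05, with a black bar at the median of the list. Basal adhesion has its median at 0.64 with 1 red point, Col17a1, and the G2/M list is centred at 0.03 with none.

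Whether these changes were shared by non-cycling basal cells was tested as an interaction of class and stage with each library as a block. That class was taken for having no UMI of the late cycle genes and was not shown to be resting. Of 10339 genes tested, 5 (0.0484%) passed, of which 2 had a positive sign (0.0193%) and 3 a negative sign (0.029%), and 685 (6.63%) had an unadjusted p under 0.05. Of 32 G1/S genes 3 had a positive interaction, with a median of -0.32, and 12 had an unadjusted p under 0.05. For 44 G2/M genes these values were 22, -0.01 and 7, and for 8 periderm genes 2, -1.69 and 5. The part of periderm cells in the non-cycling class was not tested. Over all genes 4888 of 10339 were positive, with a median of -0.02. Of the 26 genes that changed in members, 1 changed differently between the classes. That gene was Slc2a3, a glucose transporter. In members it was at 46.7 and 45.3 CPM in E13.5 control libraries against 6.98 and 5.02 CPM a day later. Members of the LOF libraries of those stages held 48.8 and 6.55 CPM. Non-cycling cells held 53.9, 54.7, 34.6, 22.2, 44.4 and 22.00 CPM in the order of libraries given above. Slc2a3 thus fell further in members than in non-cycling cells (log2 difference -1.99, SE 0.27, edgeR adjusted p = 0.000274). Igfbp5, which also binds insulin-like growth factors, was at 121 and 158 CPM in E13.5 control libraries against 398 and 211 CPM a day later, with 164 and 267 CPM in the LOF libraries of those stages in members and 216, 208, 421, 191, 269 and 285 CPM in non-cycling cells (log2 difference 0.61, SE 0.11, edgeR adjusted p = 0.0155). Non-cycling cells exceeded members at E13.5, and the classes came close at E14.5. Without E13.5 control 2 the count was 3 genes, without E14.5 control 1 19 and without E14.5 control 2 25, and Igfbp5 did not pass without E13.5 control 1 (0.46) or after thinning (0.51). Neither Slc2a3 nor Igfbp5 passed with DESeq2. For Dmkn the interaction was 0.23, for Irx6 -0.53 and for Sox11 0.42, none of which passed, which does not show that the changes were equal.

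The LOF libraries were compared with the controls over all 6 libraries with stage as a covariate. Genotype and tamoxifen cannot be told apart in this contrast. The targeted gene comes first. Ctnnb1 (chr9:120929216-120960507) was at 439.7 and 377 CPM in control embryos at E13.5, 328 and 338 CPM in control embryos at E14.5, and 267 then 284 CPM in LOF embryos at these stages in members (log2 difference -0.43, SE 0.16, edgeR adjusted p = 0.999). In cycling dermal cells, the class that the Cre driver targets, it was at 191, 177, 178, 184, 236 and 197 CPM in the order of libraries given above. The 3′ tags need not cover the floxed exons, so this level checks nothing about the deletion. No gene of 11867 passed an adjusted p of 0.05 in edgeR's test, nor in DESeq2's, and 217 (1.83%) had an unadjusted p under 0.05. Without the filter on low counts 8 genes passed, and with the resembling library pairs as a covariate 14 passed, 11 higher and 3 lower. Both LOF libraries lay above the controls of their stage for 10.5% of genes tested and below for 11.2%. On simulated counts the fit with stage alone as a covariate recovered 98% of genes changed 4-fold and 37% of genes changed 2-fold, with 17 false calls. Those changes too were placed only in genes with mean log2 CPM above 5.

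The lists in members gave no call either. Of 44 G2/M genes 27 had a positive difference, with a median of 0.10, and of 32 G1/S genes 18, with a median of 0.04, against 0.02 over all genes. Basal adhesion had 16 of 20 positive, with a median of 0.26, and Col17a1 was at 38.3 and 101 CPM in the LOF libraries of both stages (log2 difference 0.75, SE 0.28, edgeR adjusted p = 0.999). Pthlh, an epidermal ligand that signals to the dermis, was at 6.19 and 4.04 CPM in E13.5 control libraries against 10.6 and 8.78 CPM a day later, with 0.191 and 2.77 CPM in the LOF libraries of those stages (log2 difference -2.39, SE 0.50, edgeR adjusted p = 0.999). Krt17 was at 52.6 and 47.8 CPM in E13.5 control libraries against 105 and 176 CPM a day later, with 16.96 and 73.5 CPM in the LOF libraries of those stages (log2 difference -1.23, SE 0.29, edgeR adjusted p = 0.999). In both genes each LOF library lay below both controls of its stage. Cdkn1c was above them, at 270.4 and 206 CPM (log2 difference 0.51, SE 0.13, edgeR adjusted p = 0.999). Of the interactions of class and genotype, 3 of 11246 genes passed (0.0267%, each of them positive), and 551 (4.9%) had an unadjusted p under 0.05. The 1 that met the rule for named genes was Ccnb1, which drives mitotic entry, at 209 and 256 CPM in E13.5 control libraries against 125 and 211 CPM a day later, with 218 and 158 CPM in the LOF libraries of those stages in members and 21.5, 15.2, 12.03, 29.98, 10.3 and 4.25 CPM in non-cycling cells (log2 difference 1.45, SE 0.30, edgeR adjusted p = 0.0454), where LOF libraries were the low ones of their stage in non-cycling cells. It did not pass without E14.5 control 2 (1.07) or without either LOF library (2.25 and 0.64). With all libraries it did not pass with DESeq2 (1.43), with members taken at 8 or more cycle-gene UMIs (1.43), after thinning (1.61) or without cells that held other markers (1.43). Without E13.5 control 2, E14.5 control 1 or E14.5 control 2 the count was 7, 16 and 7. By list, 40 of 44 G2/M genes had a positive interaction in edgeR's test, with a median of 0.53, and 18 had an unadjusted p under 0.05. Of 32 G1/S genes 31 were positive, with a median of 0.20, and 9 had an unadjusted p under 0.05. Over all genes 5777 of 11246 were positive, with a median of 0.01. Erythroid genes were also higher in members of the LOF libraries, where they summed to 1761 and 646 CPM against 36.7 to 342 CPM in the controls. Non-cycling cells did not share this: the sums there were 432 and 26.6 CPM in the LOF libraries. In non-cycling cells of the controls they were 63.8 and 338 CPM at E13.5, and 54.9 and 1693 CPM at E14.5. In the E14.5 LOF library 1.235% of members held 3 or more erythroid UMIs, against 73.7% in E14.5 control 2, so a few cells carried the sum there. The part of erythroid RNA in these values was not tested.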

How the data were processed

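Skin libraries were made with droplet 3′ single-cell chemistry and sequenced by the authors, who deposited UMI counts per gene and cell barcode. Cell Ranger, Seurat and the mm10/GRCm38 build are named per the submitters' processing notes, with versions not given in the sources used here. The deposited counts were used as they stand. A cell was kept from 500 genes upward and up to 10% mitochondrial UMIs, which kept 40653 of 41594 barcodes; no doublet caller was run, and leaving out 12 members with far more UMIs than their library's median UMIs was an alternative. Members, comparison gates and gene lists were chosen with earlier results of these data known.

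Counts were summed over members in each library and tested with edgeR 4.0.16 (quasi-likelihood, robust, TMM factors, filterByExpr) in R 4.3.3, with Benjamini-Hochberg adjustment over all genes tested: E14.5 against E13.5 in the 4 controls, genotype in 6 libraries with stage as a covariate, and both interactions with class with library as a block. Genes of the rule were left out of counts. DESeq2 1.42.0 was an alternative, and each fit was tested on simulated data. CPM are counts per 1000000 of the deposited UMI counts of a class. Shares were compared with exact two-sided permutation tests and carry exact 95% binomial intervals, which cover counting error only. Python 3.11.15 with numpy 2.4.6, scipy 1.17.1 and pandas 2.3.3 was used for the rest.

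Named genes were the rises and falls of largest fold past adjusted p of 0.05 with mean log2 CPM of at least 5, no overlap between groups, and members holding at least 1 part in 5 of the level in other classes, without predicted, ribosomal, mitochondrial or haemoglobin genes. Calls within a list and list members of stated roles were named too.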

Additional observations from a re-analysis of the deposited data

Results flagged for a closer look

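The differences below are those whose change between groups was not the same in cycling and in non-cycling basal keratinocytes, by edgeR's test of the interaction. Between stages, 5 of 10339 genes passed, none of which passed with DESeq2. Slc2a3, a glucose transporter, fell further in cycling cells (interaction -1.99 on the log2 scale, adjusted p = 0.000274). The keratin Krt7, a gene of the periderm list, did so too (-1.56, edgeR adjusted p = 0.0486). It was at 25.7 and 35.7 CPM in cycling control cells at E13.5 against 4.63 and 7.21 CPM at E14.5. Non-cycling control cells went from 38.1 and 41.9 to 21.8 and 22.2 CPM. The part of periderm cells in that class was not tested. Igfbp5 had a positive interaction (0.61, adjusted p = 0.0155) that did not pass without E13.5 control 1 (0.46) or after thinning (0.51). For the linker histone Hist1h1c the interaction was 2.18 (adjusted p = 0.0486), and its level in cycling cells was 81.9 CPM in E14.5 control 1 and 12.9 CPM in E14.5 control 2, so the libraries of that stage did not resemble each other. The haemoglobin Hba-a2 had an interaction of -2.41 (adjusted p = 0.00112), with 192 CPM in non-cycling cells of E14.5 control 2 and 0.752 CPM in those of E14.5 control 1.

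Between genotypes, 3 of 11246 genes passed. Ccnb1, the cyclin that drives entry into mitosis, had an interaction of 1.45 (SE 0.30, adjusted p = 0.0454). In cycling cells it was at 209 and 256 CPM in control and 218 CPM in LOF embryos at E13.5, and at 125 and 211 CPM in control and 158 CPM in LOF embryos a day later. In non-cycling cells it was at 21.5 and 15.2 CPM against 10.3 CPM at E13.5, and at 12.03 and 29.98 CPM against 4.25 CPM at E14.5, so the LOF libraries stood apart in the non-cycling cells. That call did not pass without E14.5 control 2 (1.07), without E13.5 LOF (2.25) or without E14.5 LOF (0.64), nor with DESeq2 (1.43), members at 8 or more cycle-gene UMIs (1.43), thinning (1.61) or cells with other markers left out (1.43). The muscle actin Actc1 had an interaction of 2.0025 (adjusted p = 0.0454), and the predicted gene Gm26737 of 3.84 (adjusted p = 0.00145) at 2.65 to 7.99 CPM in cycling cells.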

How the results depend on the processing

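The 26 genes that changed between stages became 169 with DESeq2, 697 without a filter on low counts, 16 with members taken at 3 or more cycle-gene UMIs, 326 with all 6 libraries and 881 with all 6 libraries and the resembling pairs as a covariate, a change of both choices at once that kept 23 of the 26. With the replicate block the count was 479. Deviations of same-numbered controls correlated at 0.33 over 3882 genes, but the labels name no litter or day that they share, and with 2 pairs the numbers were not taken to pair them. Leaving out a control gave 76 to 1898. No gene passed for genotype with any of these settings except 8 without the filter and 14 with the library pairs as a covariate. The interaction of class and genotype gave 3 genes, 1 with DESeq2, 10 without the filter, 5 at 3 or more UMIs, 1 at 8 or more, 5 without cells of very high UMIs, and 3 to 16 without a library. The interaction of class and stage gave 5, against 0 with DESeq2, 13 without the filter, 3 at 8 or more UMIs, 10 thinned, and 3 to 25 without a library. The median G2/M ratio of cycling to non-cycling cells went from 2.19 to 3.22 with 1 CPM added in place of 10. The cause of these shifts was not tested. The 10 stage genes that met the rule for named genes, with Igfbp5 and Ccnb1, kept their direction in each setting run. For these genes 14 of 126 values under other settings no longer passed. Those lost without a library are given beside the results. The other stage calls were followed only as a count. After thinning 19 of the 26 remained, with all 10 among them, and 18 of the 26 remained without cells that held other markers. Leaving out cells with 3 or more UMIs of any other cell type's markers was planned and not run, since 25 of 2583 members would remain; without dermal and erythroid markers in that filter, 18 genes passed between stages. With 2 libraries against 2 no exact test of a share can fall below p = 0.333. The library pairs as a covariate and the narrower filter were added after the data were seen.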
